A study of Mus musculus with 10 samples.

Results

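The Hox cluster genes were described in mouse embryonic stem cells (mESCs) that lack either of 2 subunits of the mitotic deacetylase complex (MiDAC). All rows of the deposited expression table whose symbol is Hoxa, Hoxb, Hoxc or Hoxd followed by a number were taken, which gave 39 of the 34591 genes, and 38 of them are described. They comprise 11 Hoxa genes on chromosome 6, 10 Hoxb genes on chromosome 11, 9 Hoxc genes on chromosome 15 and 9 Hoxd genes on chromosome 2. RNA-seq had been done on 10 libraries of stranded total RNA, with 2 libraries from each of 5 cell lines. WT cells are male Bruce-4 mESCs of the C57/BL6 strain. Loss of *Dnttip1* was represented by the clones D2A7 and D1E6 (*Dnttip1* KO) and loss of *Elmsan1* by the clones E2E8 and E2G7 (*Elmsan1* KO). Each KO line was made from the WT cells with CRISPR/Cas9 and grew from a single sorted cell, so a line is 1 clone and its 2 libraries do not sample other clones. All lines, WT included, were grown without feeder cells on gelatin in 2iL medium, which holds 3 µM of the GSK3 inhibitor CHIR 99021, 1 µM of the MEK inhibitor PD 0325901 and 1000 U/ml of leukemia inhibitory factor. No agent beyond this medium was given to any group.

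Hox genes encode homeodomain transcription factors that give cells of the embryo their position along the head-to-tail axis and in the limbs. Genes with low numbers lie at the 3′ end of a cluster and act anteriorly and early, and genes with high numbers lie at the 5′ end and act posteriorly and late. The members that share a number in different clusters are paralogues. In mESCs the clusters are a textbook case of genes held silent by Polycomb repressive complexes, and they are turned on during differentiation, the 3′ genes first in response to retinoic acid.

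Levels are given as FPKM, the fragments per kilobase of exon scaled to the size of the library, after division by 1 scale factor per library that lay between 0.965 and 1.01. The fragments behind the values came back as whole numbers, from 30940210 and 37721996 on matched genes in WT to 86019244 in E2G7 replicate 2, so the WT libraries were the shallowest and showed the lowest Hox genes with the least precision. *Dnttip1* was at 8.35 to 8.45 FPKM in WT and at 2.58 to 4.57 FPKM in the *Dnttip1* KO libraries. *Elmsan1*, listed as C130039O16Rik, was at 5.34 to 5.73 FPKM in WT and at 4.62 to 5.13 FPKM in the *Elmsan1* KO libraries, so its RNA level checks those labels only weakly. All 10 markers of naive mESCs that were listed were above 0.1 FPKM and summed to between 1280 and 1523 FPKM. Of 12 fibroblast markers, 9 stayed under 0.1 FPKM in every library.

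Hox RNA was scarce in all 5 lines, and most of it came from the 5′ end of HoxC. Of the 38 genes, 3 reached 1 FPKM in any library, namely *Hoxc12*, *Hoxc13* and *Hoxc4*. A further 10 reached at least 0.1 FPKM in 2 or more libraries without reaching 1 FPKM, and the remaining 25 did not. *Hoxc12* and *Hoxc13* alone held 64.7% of the fragments of these 38 genes in WT and 64.1% over the 10 libraries. By position, the 16 posterior genes, numbers 9 to 13, gave 11407 fragments over the 10 libraries and the 15 central genes, numbers 4 to 8, gave 2081. The posterior genes made up 90.0% to 94.9% of the summed FPKM of HoxC, 64.8% to 90.6% of that of HoxB and 60.4% to 79.7% of that of HoxD. HoxA was not summed. There the central gene *Hoxa7* lay above each of the posterior genes *Hoxa9* to *Hoxa13* in all 10 libraries, so the order did not hold in every cluster.

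**Figure D1:**
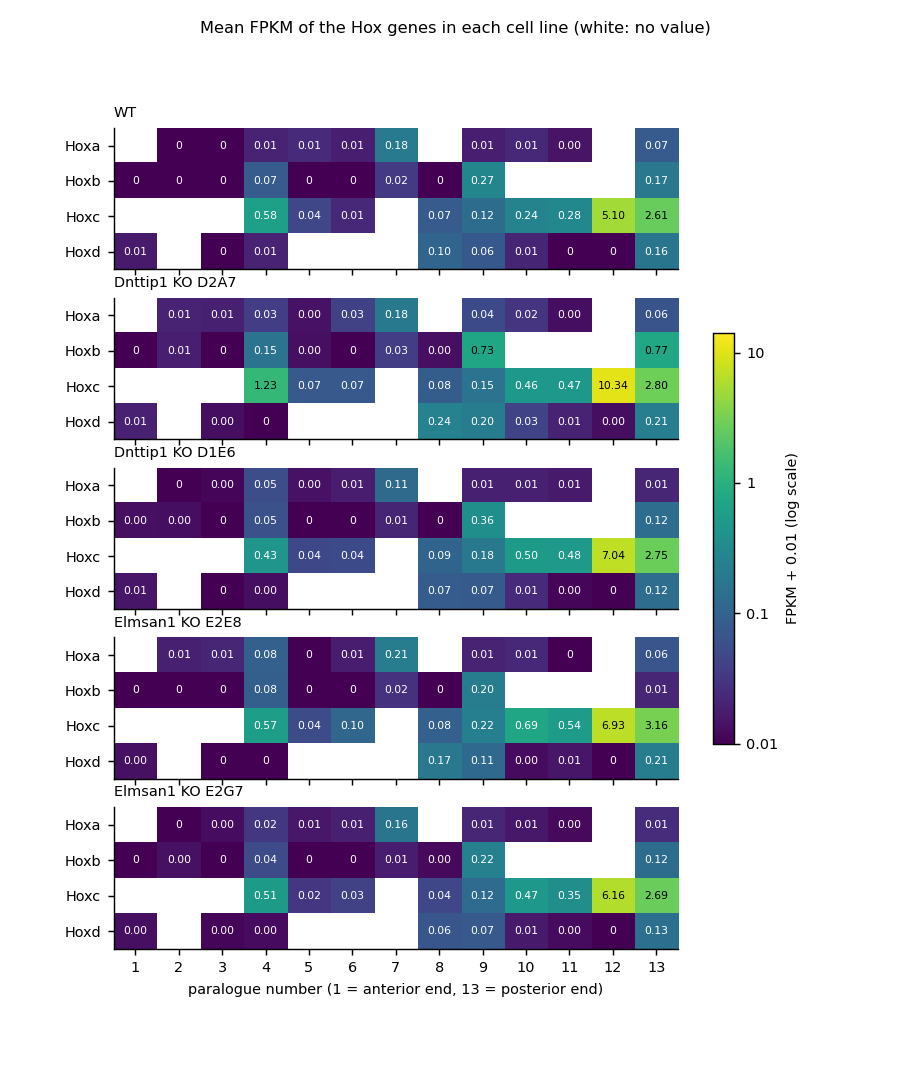
Mean FPKM of the Hox genes in each cell line, printed in the cell and coloured on a log scale, with clusters as rows and paralogue numbers as columns. White cells hold no value, 0 marks a line without a fragment and 0.00 a mean that rounds to 0. *Hoxc12* and *Hoxc13* stood above every other member in all 5 lines, with means of at least 5.10 and 2.61 FPKM.

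*Hoxc12* was the most abundant Hox gene in every library. It is a posterior gene known from the hair follicle and the limb, and lies at chr15:102767188-102769040 on the plus strand of NCBIM37. It stood at 5.33 and 4.87 FPKM in WT, at 9.03 and 11.6 FPKM in D2A7, at 7.20 and 6.88 FPKM in D1E6, at 6.16 and 7.70 FPKM in E2E8 and at 6.12 and 6.19 FPKM in E2G7. All 8 KO libraries lay above both WT libraries, and both D2A7 libraries lay above all others. Its neighbour at the 5′ end of the cluster, *Hoxc13*, a regulator of hair and nail keratin genes at chr15:102751534-102759245, was nearly level. It stood at 2.70 and 2.53 FPKM in WT and between 2.57 and 3.19 FPKM in the KO libraries, with both E2E8 libraries highest at 3.13 and 3.19 FPKM. *Hoxc4*, the 3′ end of HoxC at chr15:102849367-102867274 and a gene that patterns the neck and upper trunk, stood at 0.587 and 0.582 FPKM in WT. In D2A7 it stood at 1.21 and 1.25 FPKM, against 0.428 to 0.606 FPKM in the other 6 KO libraries.

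The 250 bases before the annotated start of 3 members are shown because *Hoxc12* and *Hoxc13* had the most RNA in every line and *Hoxb13* was called in opposite directions in 2 clones. The sequences were read from NCBIM37 at the starts of GENCODE vM1 and run 5′ to 3′ on the strand of the gene, with each CG dinucleotide in capitals.
*Hoxc12*, chr15:102766938-102767187, plus strand: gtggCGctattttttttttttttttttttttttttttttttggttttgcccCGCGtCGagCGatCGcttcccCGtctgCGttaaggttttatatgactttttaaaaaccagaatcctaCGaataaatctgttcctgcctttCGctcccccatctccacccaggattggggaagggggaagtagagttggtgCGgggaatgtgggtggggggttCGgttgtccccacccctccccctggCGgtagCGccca
*Hoxc13*, chr15:102751284-102751533, plus strand: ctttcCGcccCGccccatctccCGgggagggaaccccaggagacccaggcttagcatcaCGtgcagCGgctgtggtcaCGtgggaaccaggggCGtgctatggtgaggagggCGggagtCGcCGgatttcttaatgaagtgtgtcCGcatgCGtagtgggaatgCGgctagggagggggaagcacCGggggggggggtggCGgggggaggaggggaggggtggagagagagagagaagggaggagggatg
*Hoxb13*, chr11:96055380-96055629, plus strand: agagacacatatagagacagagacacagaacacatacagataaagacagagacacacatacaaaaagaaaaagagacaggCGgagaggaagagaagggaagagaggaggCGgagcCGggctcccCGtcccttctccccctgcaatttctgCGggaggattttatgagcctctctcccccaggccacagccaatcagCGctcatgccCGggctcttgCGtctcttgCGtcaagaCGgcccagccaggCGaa

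These windows held 14, 15 and 11 CG dinucleotides in the order printed. Over the 38 Hox genes the count ran from 2 to 41 with a median of 12, against a median of 9 over the windows of 22367 protein-coding genes. The median GC content was 53.8% for the Hox genes and 54.4% for all. The letters CCAAT stood in 25 of the 38 Hox windows and in 35.0% of all windows, and TATAAA stood in 6 of the Hox windows, *Hoxc12* among them, and in 12.3% of all. The caudal-type letters TTTATGG stood in 5 Hox windows, those of *Hoxa7*, *Hoxb4*, *Hoxc4*, *Hoxd4* and *Hoxd10*, and in 2.34% of all, and the nuclear receptor letters AGGTCA stood in 3 and in 12.6%. All were searched on both strands. A match describes the sequence and not a bound site, and a missing match says only that these letters were not in this window.

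In the other clusters the most abundant genes stayed under 1 FPKM. In HoxB these were the posterior genes *Hoxb9* and *Hoxb13*, and in HoxD they were *Hoxd13*, *Hoxd8* and *Hoxd9*. *Hoxd13*, a gene of digit formation, was at 0.148 and 0.168 FPKM in WT and at 0.0978 to 0.220 FPKM in the KO libraries. *Hoxa7*, which patterns the trunk, was at 0.174 and 0.191 FPKM in WT and at 0.100 to 0.224 FPKM in the KO libraries. In both genes the KO range enclosed the WT values. *Hoxa13*, another gene of digit formation, was read from 58 fragments in all 10 libraries, 4 and 8 in WT, 8 and 8 in D2A7, 2 and 1 in D1E6, 15 and 6 in E2E8 and 4 and 2 in E2G7, and did not pass the filter for a test. *Hoxa4*, which acts in the neck region, was read from 39 fragments in all, at 0.0209 and 0 FPKM in WT, 0.0741 and 0.0926 FPKM in E2E8 and 0.0156 to 0.0518 FPKM in the other KO libraries, and did not pass it. *Hoxb4*, which acts in the neck region and in blood stem cells, stood at 0.0482 and 0.0945 FPKM in WT, at 0.202 and 0.0995 FPKM in D2A7 and at 0.0359 to 0.0819 FPKM in the other KO libraries, and did not pass it either.

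Most of the remaining genes gave few fragments. No fragment at all was found for *Hoxb3* and *Hoxb6* in any library. A count of 0 allows up to 3 fragments, as far as counting error goes, which is up to 0.0115 to 0.0333 FPKM for *Hoxb3* and up to 0.0167 to 0.0482 FPKM for *Hoxb6*, depending on the depth of the library. In all, 13 members had fewer than 10 fragments over the 10 libraries and 11 had none in WT. Only 23 members stayed under 0.1 FPKM in every library, since *Hoxb4*, at 0.202 FPKM in D2A7 replicate 1, and *Hoxc6*, at 0.126 FPKM in E2E8 replicate 1, passed it in a single library each. *Hoxc8* and *Hoxc9*, which lie in the middle of HoxC, reached 0.117 and 0.227 FPKM at most, and neither was called in any comparison in which it was tested. Gene models overlap within the clusters, and 12 members share exon bases with another gene on the same strand. *Hoxd4* shares 67.4% of its exon bases with *Hoxd3*, *Hoxb8* shares 40.4% with *Hoxb7*, and *Hoxb7* shares 26.2% with *Hoxb8*, so the values of these genes depend on how shared reads were counted. Of the genes tested, the shared part was largest for *Hoxc10*, at 8.70% with *Gm20398*, which itself had no fragment.

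Summed over its genes, HoxC was above HoxB and HoxD in every library, at 8.79 to 17.1 FPKM, and HoxB and HoxD stayed between 0.239 and 1.74 FPKM. The sums are a description and were not tested. HoxC stood at 9.34 and 8.79 FPKM in WT and at 14.2 and 17.1 FPKM in D2A7, and the other 3 clones lay between, at 10.3 to 13.1 FPKM. HoxB stood at 0.563 and 0.519 FPKM in WT, at 1.74 and 1.64 FPKM in D2A7 and at 0.289 and 0.337 FPKM in E2E8, so that the clones lay on either side of WT. HoxD was highest in D2A7, at 0.738 and 0.691 FPKM against 0.239 and 0.451 FPKM in WT. The clones D1E6 and E2G7 stayed within 0.239 to 0.620 FPKM in HoxB and HoxD. Within HoxA the order of lines differed from gene to gene. The means of *Hoxa4* and *Hoxa7* were highest in E2E8, those of *Hoxa6*, *Hoxa9* and *Hoxa10* in D2A7 and that of *Hoxa13* in WT. Of these genes only *Hoxa7* reached 0.1 FPKM.

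**Figure D2:**
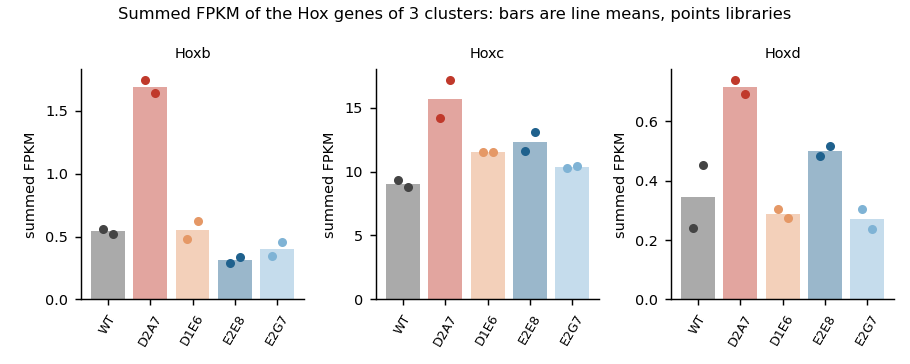
Summed FPKM of the Hox genes of HoxB, HoxC and HoxD, with bars for the mean of a line and points for its 2 libraries. Each panel has its own axis from 0. D2A7 was highest in these 3 clusters, and E2E8 was lowest in HoxB, at 0.289 and 0.337 FPKM.

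The first question put to the design was whether loss of either MiDAC subunit changed Hox RNA. Genes at or above 0.1 FPKM in 2 or more of the libraries compared were tested with limma on log2(FPKM + 0.1), a scale that understates the change of genes near 0.1 FPKM. To be called, a gene had to change 1.5-fold or more with p under 0.01 before adjustment, and adjusted p-values are Benjamini-Hochberg values over all genes tested. With the 4 *Dnttip1* KO libraries against WT, 6.51% of all genes tested were called, and none of the 13 Hox genes tested was. At an unadjusted p under 0.05 there were 3, all higher in the KO, beside 27.3% of all genes tested. With voom on the recovered fragments 0 were called. With the 4 *Elmsan1* KO libraries, 6.43% of all genes were called and again none of the 12 Hox genes tested. An unadjusted p under 0.05 was reached by 2, both higher, beside 27.8% of all genes tested, and voom called 0. A fit of all 10 libraries takes the spread between libraries of a clone and not between clones as its error. It called 5 in the *Dnttip1* KO, namely *Hoxb9*, *Hoxb13*, *Hoxc10*, *Hoxc11* and *Hoxc12*, all higher, beside 2162 of all 17434 genes tested. In the *Elmsan1* KO it called 2, namely *Hoxc10*, higher, and *Hoxb13*, lower, beside 1959 of all 17212 genes tested. Of the 38 members, 25 did not pass the filter in the *Dnttip1* KO comparison and 26 in the *Elmsan1* KO comparison. These comparisons take in 2 clones of each KO that differed from each other, and the estimated correlation within clones was 0.704 and 0.768. The calls at 6.51% and 6.43% counted each library as a separate sample and left this correlation out. With it modelled, 538 genes in place of 1135 were called in the *Dnttip1* KO, and 486 in place of 1106 in the *Elmsan1* KO.

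The genes nearest to a call were neighbours in the posterior part of HoxC. For *Hoxc10*, known from the lumbar spinal cord and hindlimb, WT stood at 0.157 and 0.328 FPKM, the *Dnttip1* KO at 0.446, 0.482, 0.411 and 0.597 FPKM and the *Elmsan1* KO at 0.791, 0.596, 0.508 and 0.430 FPKM. Its log2 fold change was 0.81 ± 0.26 (SE) in the *Dnttip1* KO (limma, adjusted p = 0.109) and 1.01 ± 0.30 in the *Elmsan1* KO (adjusted p = 0.0835). Without WT replicate 2, which held the higher of the WT values, it passed the call in both, at 1.17 and 1.38 on the log2 scale.
For *Hoxc11*, WT stood at 0.330 and 0.233 FPKM and the 8 KO libraries at 0.344 to 0.643 FPKM. Its log2 fold change was 0.60 ± 0.17 in the *Dnttip1* KO (limma, adjusted p = 0.0846) and 0.50 ± 0.27 in the *Elmsan1* KO (adjusted p = 0.278). *Hoxc12* gave 0.73 ± 0.22 (adjusted p = 0.0936) and 0.35 ± 0.12 (adjusted p = 0.114), and without D1E6 replicate 2 it passed the call in the *Dnttip1* KO at 0.83. *Hoxc10*, *Hoxc11* and *Hoxc12* were the 3 of the 13 genes above the filter for which all 8 KO libraries lay above both WT libraries, a pattern seen in 12.2% of all genes above the filter. No Hox gene had all 8 below both WT libraries, against 12.1% of all genes.

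When the knockouts were compared with each other, 1.52% of all genes tested were called and 1 of 13 Hox genes, *Hoxb9*, which acts in the thorax and the mammary gland. It was at 0.656, 0.795, 0.305 and 0.412 FPKM in the *Dnttip1* KO and at 0.163, 0.241, 0.188 and 0.261 FPKM in the *Elmsan1* KO, without overlap. The log2 difference was 0.98 ± 0.27, *Dnttip1* KO minus *Elmsan1* KO (limma, adjusted p = 0.296). This call was lost when the correlation within clones was modelled, without either D2A7 library, where the difference was 0.88 and 0.79, and without E2E8 replicate 1, E2E8 replicate 2 or E2G7 replicate 1, where it was 0.90, 1.02 and 0.94. *Hoxb13* differed by 1.49 ± 0.55 and, of the fits without 1 library, was called in that without D1E6 replicate 1, at 1.86.

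The lines were then compared as single clones, with all 10 libraries in a fit of 5 line means. These tests measure the spread between 2 libraries of a clone and not that between clones of a genotype, so that an effect of the knockout and a property of the clone cannot be told apart in them.

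**Figure D3:**
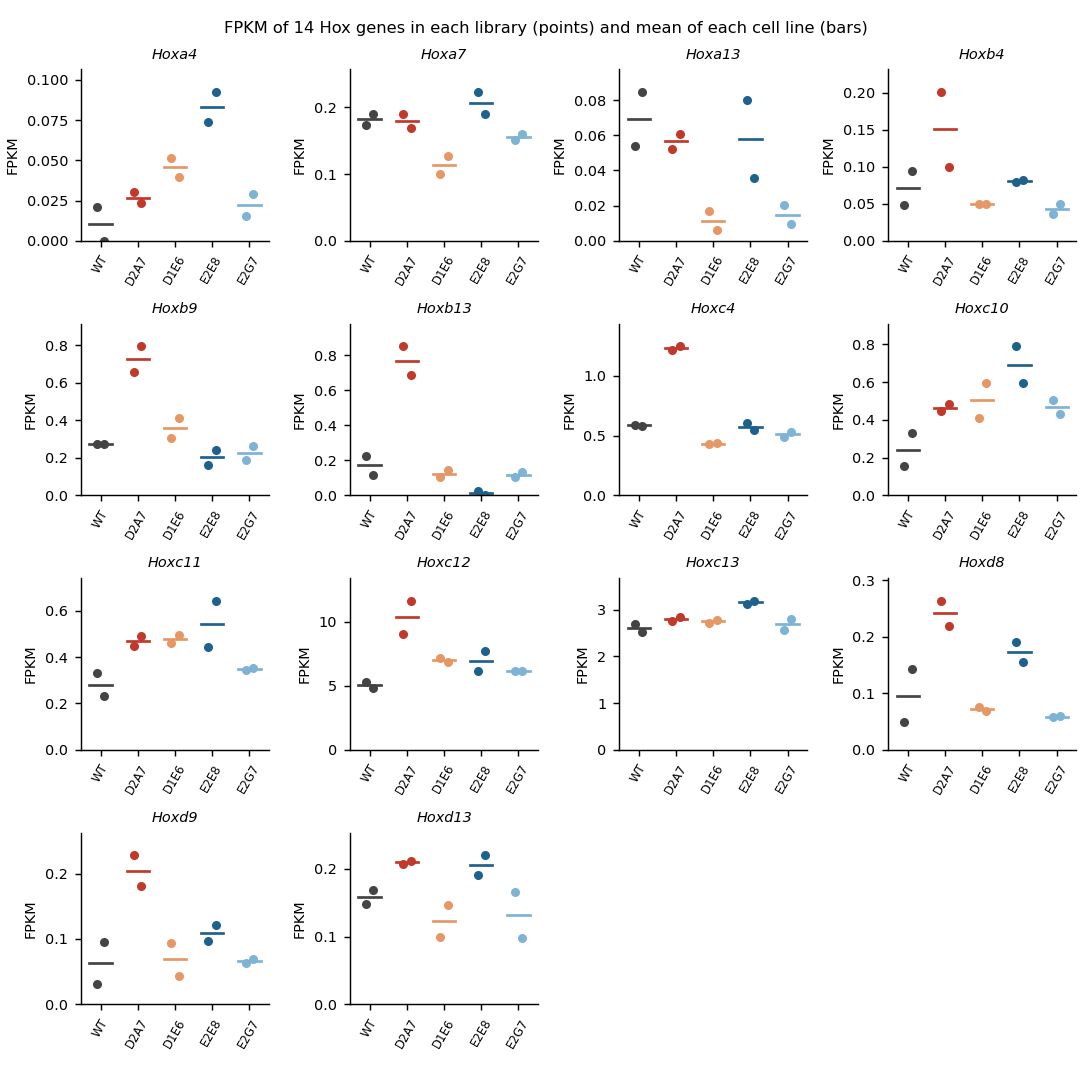
FPKM of the 14 named Hox genes in each library, as points, with the mean of each cell line as a bar. Each panel has its own axis from 0. By line mean, *Hoxb4*, *Hoxb9*, *Hoxb13*, *Hoxc4*, *Hoxc12*, *Hoxd8*, *Hoxd9* and *Hoxd13* were highest in D2A7, *Hoxd13* only narrowly, at 0.209 FPKM against 0.205 FPKM in E2E8. *Hoxa4*, *Hoxa7*, *Hoxc10*, *Hoxc11* and *Hoxc13* were highest in E2E8, and *Hoxa13* was highest in WT.

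The *Dnttip1* KO clone D2A7 had more RNA of 6 Hox genes than WT. Of all genes tested 17.1% were called, and of 12 Hox genes tested 6 were called, all higher. They were *Hoxb9* and *Hoxb13* of HoxB, *Hoxc4* and *Hoxc12* of HoxC, and *Hoxd8* and *Hoxd9* of HoxD, and none was from HoxA. *Hoxd9* passed the filter only through D2A7, since both WT libraries were under 0.1 FPKM. *Hoxd8* also needed D2A7 to pass it, since WT replicate 1 was under 0.1 FPKM. The count therefore does not describe all members.
*Hoxb13*, the most posterior gene of its cluster, which acts in the tail end of the axis and the prostate, stood at 0.227 and 0.118 FPKM in WT and at 0.853 and 0.689 FPKM in D2A7, from 15 and 10 and from 117 and 81 fragments. The mean was 4.47-fold that of WT, with a log2 fold change of 1.70 ± 0.24 (SE, limma, adjusted p = 0.000690). *Hoxb9* stood at 0.272 and 0.274 FPKM in WT and at 0.656 and 0.795 FPKM in D2A7, which is 2.66-fold (1.14 ± 0.20, adjusted p = 0.00205). In both genes every D2A7 library lay above every library of the other lines.
*Hoxc4* was 2.11-fold (0.96 ± 0.10, limma, adjusted p = 0.000133) and *Hoxc12* 2.03-fold (1.00 ± 0.13, adjusted p = 0.000553) the WT mean, from the values given above. *Hoxd8*, a trunk gene, stood at 0.0486 and 0.143 FPKM in WT and at 0.264 and 0.219 FPKM in D2A7 (0.84 ± 0.24, adjusted p = 0.0195). *Hoxd9*, a gene of the trunk and limb, stood at 0.0305 and 0.0957 FPKM in WT and at 0.228 and 0.181 FPKM in D2A7 (0.93 ± 0.25, adjusted p = 0.0155). These HoxD values rest on 4 and 15 and on 2 and 8 fragments in WT. The calls of *Hoxd8* and *Hoxd9* were lost without WT replicate 1, at 0.49 and 0.63 on the log2 scale, and with the replicate number as a block, and that of *Hoxd8* was lost without either D2A7 library too, at 0.75 and 0.94. The calls of *Hoxb13*, *Hoxb9*, *Hoxc4* and *Hoxc12* held with each of the 4 libraries of D2A7 and WT left out in turn. Over all alternatives *Hoxd8* kept its call in 6 of 15 and *Hoxd9* in 7 of 13. *Hoxc10* and *Hoxc11*, at 0.76 ± 0.26 and 0.59 ± 0.18, were called without WT replicate 2 and without WT replicate 1, at 1.13 and 0.77.

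In the other *Dnttip1* KO clone, D1E6, no Hox gene was called against WT. Of all genes tested 11.7% were called and 0 of 11 Hox genes with limma, and voom called 0. An unadjusted p under 0.05 was reached by 5, of which 3 were higher, beside 51.7% of all genes tested. *Hoxb13* stood at 0.103 and 0.144 FPKM (log2 fold change against WT −0.27 ± 0.24) and *Hoxb9* at 0.305 and 0.412 FPKM (0.29 ± 0.20). *Hoxc4* stood at 0.428 and 0.440 FPKM, below both WT libraries, with a log2 fold change of −0.36 ± 0.10 (limma, adjusted p = 0.0193) that did not reach 1.5-fold. *Hoxc10* gave 0.85 ± 0.26 and *Hoxc11* 0.61 ± 0.19 (limma, adjusted p = 0.0340 and 0.0310), neither of them called, and each was called without 1 WT library, *Hoxc10* at 1.21 without replicate 2 and *Hoxc11* at 0.79 without replicate 1.

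In the direct comparison of D2A7 with D1E6, in which the WT values cancel, 13.8% of all genes tested were called and 5 of 12 Hox genes, all higher in D2A7. The log2 differences, D2A7 minus D1E6, were 1.96 ± 0.24 for *Hoxb13* (limma, adjusted p = 0.000392), 1.32 ± 0.10 for *Hoxc4* (adjusted p = 3.01e-05) and 0.85 ± 0.20 for *Hoxb9* (adjusted p = 0.00953). They were 0.98 ± 0.24 for *Hoxd8* and 0.86 ± 0.25 for *Hoxd9*, at 0.0752 and 0.0692 FPKM and at 0.0945 and 0.0435 FPKM in D1E6, so that both passed the filter only through D2A7. *Hoxc12* differed by 0.54 ± 0.13, under the fold required, and was called without D2A7 replicate 1, at 0.72. This comparison and that with WT share the D2A7 libraries. Without D2A7 replicate 2 or D1E6 replicate 1 the call of *Hoxb9* was lost at 0.73 and 0.68, without either D1E6 library that of *Hoxd8* at 1.01 and 0.96, and without D1E6 replicate 2 that of *Hoxd9* at 0.64. The call of *Hoxd9* was also lost with the replicate number as a block, and it held in 5 of 13 alternatives.

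The *Elmsan1* KO clone E2E8 had more RNA of *Hoxc10* and *Hoxc11* and less of *Hoxb13* than WT. Of all genes tested 17% were called, and 3 of 12 Hox genes. *Hoxc10*, at 0.791 and 0.596 FPKM, gave a log2 fold change of 1.25 ± 0.26 (SE, limma, adjusted p = 0.00498) and *Hoxc11*, at 0.442 and 0.643 FPKM, gave 0.75 ± 0.18 (adjusted p = 0.0101).
*Hoxb13* was nearly absent from E2E8, at 0.0238 and 0 FPKM from 4 and 0 fragments, where the shallower WT libraries had 15 and 10. The E2E8 mean was 6.90% of that of WT. Its log2 fold change was −1.26 ± 0.24 (limma, adjusted p = 0.00280), so the same gene was called in opposite directions in D2A7 and E2E8. In E2E8 it passed the filter only through the WT libraries, and without either of these it was not tested. Without E2E8 replicate 1 the call of *Hoxc10* was lost at 1.07, and that of *Hoxc11* was lost without WT replicate 2 or E2E8 replicate 2, at 0.56 and 0.52. Without E2E8 replicate 1 or WT replicate 2 respectively, *Hoxc12* at 0.59 and *Hoxd8* at 0.88 were called higher in E2E8. With only the 4 libraries compared in the fit, none of the 3 calls remained.

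In the other *Elmsan1* KO clone, E2G7, 10.7% of all genes tested were called and 0 of 10 Hox genes with limma, and voom called 0. An unadjusted p under 0.05 was reached by 1 (*Hoxc10*, higher), beside 50.1% of all genes tested. *Hoxb13* stood at 0.107 and 0.131 FPKM, with a log2 fold change of −0.29 ± 0.24. *Hoxc10* gave 0.77 ± 0.26 (limma, adjusted p = 0.0485) and was called at 1.14 without WT replicate 2. Set directly against E2G7, E2E8 had 13.2% of all genes tested called and 1 of 11 Hox genes. *Hoxb13* fell by 0.97 on the log2 scale, with an SE of 0.24 (limma, adjusted p = 0.0116). This call was lost without E2E8 replicate 2, at −0.82, and without either E2G7 library *Hoxb13* did not pass the filter and 0 calls were left. Without E2E8 replicate 1 *Hoxc11* was called at 0.72. *Hoxd8*, at 0.78 ± 0.25, missed the p required, and voom called it at 1.53 beside *Hoxb13*. In this comparison *Hoxb13* passed the filter only through E2G7 and *Hoxd8* only through E2E8.

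**Figure D4:**
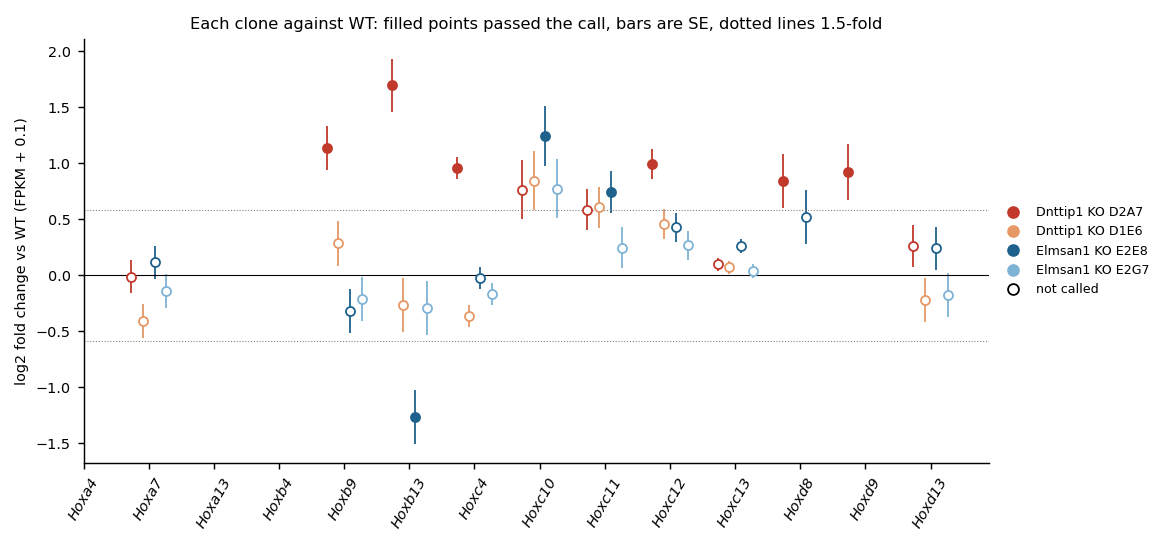
Log2 fold change of each named Hox gene in each KO clone against WT on the FPKM + 0.1 scale, with SE bars; filled points passed the call, open points did not, and dotted lines mark 1.5-fold. *Hoxb13* lay at 1.70 in D2A7 and at −1.26 in E2E8, and *Hoxc10* lay above 0 in all 4 clones. Genes without a point did not pass the filter in that comparison.

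In D2A7 other genes that lie between *Hoxb13* and *Hoxb9* were also called higher. The cluster spans chr11:96055630-96229570, and a long gap separates *Hoxb13* from the other members. In this gap, *Gm53*, listed as protein-coding in GENCODE vM1 at chr11:96112419-96126182, stood at 1.20 and 1.13 FPKM in WT and at 4.86 and 5.29 FPKM in D2A7, with a log2 fold change of 2.03 ± 0.07 (SE, limma, adjusted p = 1.23e-06). The *Mir196a-1* row, a precursor model of 102 bases, stood at 3.59 and 2.05 FPKM from 11 and 8 fragments in WT and at 15.5 and 15.6 FPKM from 98 and 85 fragments in D2A7 (2.47 ± 0.24, adjusted p = 0.000105). It was also called in D1E6, at 5.06 and 5.28 FPKM (0.90 ± 0.24, adjusted p = 0.0179). The lincRNA *Gm11538*, just 3′ of *Hoxb13*, had 0 fragments in both WT libraries, 26 and 39 in D2A7, where it was called, and 7 to 18 in the other KO libraries. It passed the filter against WT only through the KO libraries, and its fitted fold change is against a group at 0. D2A7 was thus the highest line for each of these genes. The pseudogene *Gm11539*, in the same gap, stood at 54.4 and 65.5 FPKM in WT and 69.8 and 65.6 FPKM in D2A7 and was not called.
Of the protein-coding genes tested nearest the cluster, *Ttll6* on the *Hoxb13* side was not called in D2A7 and was lower in D1E6 and E2G7, and *Snx11* on the *Hoxb1* side was called in no comparison. Beyond *Ttll6*, at 82.4 kb from the cluster, *Calcoco2*, which encodes an autophagy receptor, was chosen after its values were seen. It stood at 58.0 and 59.5 FPKM in WT, at 105 and 101 FPKM in D2A7, at 51.7 and 52.1 FPKM in D1E6, at 27.3 and 27.0 FPKM in E2E8 and at 47.5 and 46.7 FPKM in E2G7. Its log2 fold change was 0.81 ± 0.03 in D2A7 (limma, adjusted p = 1.26e-06) and −1.11 ± 0.03 in E2E8 (adjusted p = 5.03e-07), opposite in direction as for *Hoxb13*. A link between *Calcoco2* and *Hoxb13* was not tested. The median log2 fold change of the other genes of chromosome 11 was 0.02 in D2A7 and 0.01 in E2E8.

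**Figure D5:**
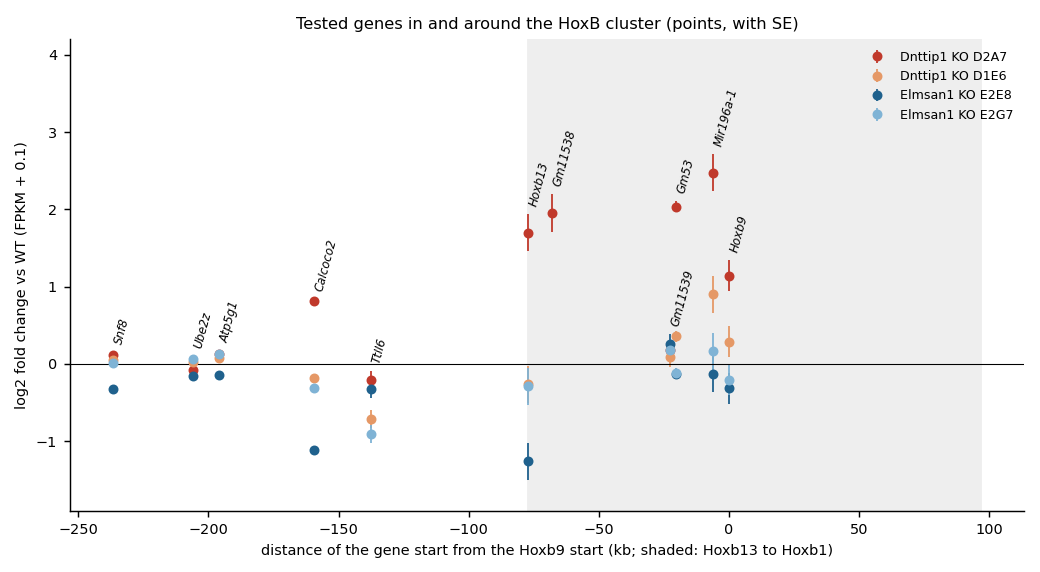
Log2 fold change against WT, with SE, of every tested gene in and around HoxB, placed by the distance of its start from that of *Hoxb9* in kb; the shaded span runs from *Hoxb13* to *Hoxb1* and colours mark the 4 KO clones. The D2A7 points of *Hoxb13*, *Gm53*, *Mir196a-1* and *Hoxb9* lay between 1.14 and 2.47, that of *Gm11538* is fitted against 0 fragments in WT, and no member on the 3′ side of *Hoxb9* passed the filter.

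The *Mir196a-1* row counts fragments of the precursor's locus in total RNA and not the mature miRNA. The mature sequences of the miRNAs encoded in the clusters are shown because miR-196 is known to target Hox transcripts. They are from RefSeq (GRCm38.p6) with the seed, bases 2 to 8, in capitals. miR-196a and miR-196b share the seed AGGUAGU, and miR-10a and miR-10b share the seed ACCCUGU.
mmu-miR-196a-5p: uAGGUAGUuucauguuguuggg
mmu-miR-196b-5p: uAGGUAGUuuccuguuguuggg
mmu-miR-10a-5p: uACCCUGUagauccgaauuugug
mmu-miR-10b-5p: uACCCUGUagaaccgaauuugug

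In NCBIM37, miR-196a lies at chr11:96126501-96126522, inside the *Mir196a-1* model, and at chr15:102803796-102803817, inside *Mir196a-2*, both on the plus strand. miR-196b lies at chr6:52180128-52180149 on the minus strand, within the *Hoxa9* gene model, miR-10a at chr11:96178500-96178522, within the *Hoxb4* gene model, and miR-10b at chr2:74564131-74564153 in HoxD. The rows of *Mir196b*, *Mir10a*, *Mir10b* and *Mir615* were at 0 in all 10 libraries, and *Mir196a-2* was read from 11 fragments in all. *Mir10a* shares exon bases on the same strand with *Hoxb4*, and *Mir196b* with *Hoxa9*. The 0 of these rows therefore depends on how shared reads were counted. A search of the exons of all 38 members for the complement of the whole of miR-196a, with few differences allowed, found a single site, in the 3′ UTR of *Hoxb8* at chr11:96146202-96146223 on the plus strand, where an exon of the *Hoxb7* gene model overlaps it. The bases opposite the seed are in capitals.
*Hoxb8* site: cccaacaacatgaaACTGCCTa

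The site matches the exact complement at 21 of the 22 bases. It differs by A18G, counted from 1 at the 5′ end of the site with the complement's base first. This base lies in the stretch opposite the seed, where its G faces a U of miR-196a, a G:U wobble pair. *Hoxb8* itself was read from 2 fragments in all 10 libraries, 1 in D2A7 and 1 in E2G7, so no comparison with the *Mir196a-1* row was possible.

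HoxA lies on the minus strand of chromosome 6, a chromosome whose other genes also differed between lines. The median log2 fold change against WT of the genes of chromosome 6 tested, Hox genes left out, was −0.06 in D2A7, 0.37 in D1E6, 0.38 in E2E8 and 0.25 in E2G7, while the medians of chromosomes 2, 11 and 15 lay between −0.04 and 0.03 in these 4 clones. Relative to the median of chromosome 6, the log2 fold change of *Hoxa7* in D1E6 was −0.77 in place of −0.40 and became called. Relative to it, *Hoxa7* was also called higher in D2A7 than in D1E6, at 0.81. This centring was chosen after the data were seen. The non-coding gene *Hotairm1*, listed as *Gm15051*, lies on the plus strand. It stood at 0.488 and 0.306 FPKM in WT and at 0.948 and 0.893 FPKM in E2E8 (1.06 ± 0.20, limma, adjusted p = 0.00250). The library kit keeps the strand, but whether the counting used it is not given in the sources used here. Beside the cluster, *Skap2* at the 3′ end was called higher in D1E6 and E2E8, at 0.63 ± 0.04 and 0.65 ± 0.04, and *Evx1* at the 5′ end stayed at 0.0821 to 0.263 FPKM and was called only between E2E8 and E2G7, where it fell by 0.89 on the log2 scale. Beside HoxC, *Smug1* was called in no comparison, and beside HoxD, neither was *Lnp* or *Mtx2*. Besides *Hotairm1*, 26 other non-Hox genes lie inside the 4 clusters, and of all 27, 7 reached 0.1 FPKM in any library and 11 had no fragment.

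Genes that act with or upstream of the Hox genes were taken from lists. Of the ParaHox and caudal genes, 4 of 8 stayed under 0.1 FPKM. *Cdx1*, a caudal-type factor that binds Hox regulatory DNA, stood at 1.90 and 1.63 FPKM in WT, at 6.66 and 5.84 FPKM in D2A7, at 1.78 and 1.79 FPKM in D1E6, at 0.885 and 0.920 FPKM in E2E8 and at 1.87 and 2.07 FPKM in E2G7. It was thus called higher in D2A7 (1.77 ± 0.10, limma, adjusted p = 7.38e-06) and lower in E2E8 (−0.89 ± 0.10, adjusted p = 0.000181). *Hoxb13*, and *Meis2* and *Pknox2* below, were called in these directions in the same clones. Of all genes tested, 1940 of 17101 were called higher in D2A7 and 1054 of 16895 lower in E2E8. The number with both calls is not given here, and *Hoxb13* passed the filter in E2E8 only through WT. A link between *Cdx1* and the Hox genes was not tested. *Gsx2* was called lower in all 4 clones, at 0.647 and 0.638 FPKM in WT and at 0.0513 to 0.303 FPKM in the KO libraries. Of the TALE cofactors, which bind DNA together with Hox proteins, 8 were tested. In D2A7 *Meis2* and *Pknox2* were called higher and *Pbx3* lower, in E2E8 *Pbx4* was called higher and *Meis2*, *Meis3* and *Pknox2* lower, in E2G7 *Meis2* was lower, and in D1E6 0 were called. Of all genes tested, 17.1% were called in D2A7, 17% in E2E8, 10.7% in E2G7 and 11.7% in D1E6.
*Meis2* stood at 0.407 and 0.395 FPKM in WT, at 1.09 and 1.14 FPKM in D2A7 and at 0.164 to 0.320 FPKM in the other KO libraries. The log2 fold change of *Meis2* was 1.28 ± 0.13 in D2A7 (limma, adjusted p = 0.000116) and −0.87 ± 0.13 in E2E8 (adjusted p = 0.000763). *Pknox2* stood at 0.770 and 0.881 FPKM in WT, at 1.57 and 1.60 FPKM in D2A7 and at 0.319 and 0.314 FPKM in E2E8. The list median was 0.10, −0.13, −0.12 and −0.16 in D2A7, D1E6, E2E8 and E2G7, against 0.04, −0.00, 0.03 and −0.02 for all genes tested.

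Of the Polycomb genes, whose products hold Hox genes silent, 31 were tested, of which 4 were called in D2A7, 3 in D1E6, 3 in E2E8 and 2 in E2G7, no larger a share than that of all genes in any of the 4 clones. In D2A7 *Aebp2* and *Cbx8* were higher and *Scml2* and *Yaf2* lower, in D1E6 *Ezh2* was higher and *Scml2* and *Yaf2* lower, in E2E8 *Phf1* was higher and *Jarid2* and *Scml2* lower, and in E2G7 *Scml2* and *Yaf2* were lower. *Scml2* was called lower in all 4 clones, at 0.603 and 0.622 FPKM in WT and at 0.211 to 0.318 FPKM in the KO libraries. The methyltransferase gene *Ezh2*, which lies on chromosome 6, was called only in D1E6, at 42.6 and 42.7 FPKM against 27.6 and 28.6 FPKM in WT. The list medians were 0.04, −0.01, −0.06 and −0.00 in the order above. Of 17 Trithorax and COMPASS genes, which keep Hox genes active, D2A7 had *Ash2l*, *Kdm6b* and *Kmt2c* higher, at 0.60 to 0.62 on the log2 scale, E2E8 had *Setd1b* lower at −0.70, and the other clones had 0 called, where 17.1% of all genes were called in D2A7 and 17% in E2E8. The medians of this list were 0.22, 0.10, −0.18 and 0.09.

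Of 18 retinoic acid genes, 11 were tested in D2A7 and 10 in each other clone. D2A7 had 5 higher, namely *Aldh1a2*, *Crabp2*, *Dhrs3*, *Rarg* and *Stra8*, and 1 lower, *Crabp1*. *Dhrs3*, which reduces retinal, stood at 0.410 and 0.366 FPKM in WT, at 2.43 and 2.51 FPKM in D2A7 and at 0.289 to 0.525 FPKM in the other KO libraries. *Aldh1a2*, which makes retinoic acid, stood at 2.11 and 2.08 FPKM in WT, at 3.70 and 3.95 FPKM in D2A7 and at 1.03 and 1.04 FPKM in E2E8, where it was called lower and *Aldh1a3* was called higher. *Crabp2* and *Rarg* were also higher and *Crabp1* lower in D1E6 and E2G7. For the binding protein gene *Crabp1*, E2E8 stood at 13.4 and 13.9 FPKM beside 12.5 and 12.3 FPKM in WT, and the other clones at 2.59 to 5.86 FPKM. In all, 6 of 11 were called in D2A7, 3 of 10 in D1E6, 2 of 10 in E2E8 and 3 of 10 in E2G7, beside 17.1%, 11.7%, 17% and 10.7% of all genes tested.

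Of 12 genes of posterior axial progenitors and mesoderm, 8 were tested in D2A7 and D1E6 and 7 in E2E8 and E2G7. The progenitor gene *Nkx1-2* was called lower in all 4 clones, at 4.42 and 4.69 FPKM in WT and at 1.21 to 2.02 FPKM in the KO libraries. So was T, the brachyury gene of the primitive streak, at 0.662 and 0.519 FPKM in WT and at 0.164 to 0.319 FPKM in the KO libraries. *Lef1* was also lower in D2A7, D1E6 and E2G7. *Gdf11*, a ligand that acts at the step from trunk to tail, was higher in D2A7, D1E6 and E2E8, and *Eomes* in D1E6, E2E8 and E2G7. Called higher and lower were 1 and 3 of 8 in D2A7 and 2 and 3 of 8 in D1E6. They were 2 and 2 of 7 in E2E8 and 1 and 3 of 7 in E2G7. Of all genes tested, 17.1%, 11.7%, 17% and 10.7% were called in these 4 clones, in this order. Of 13 non-coding RNAs of the clusters in the table, 2 or 3 were tested against WT per clone, and those called were *Mir196a-1* in D2A7 and D1E6 and *Hotairm1* in E2E8.

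Markers of other cell types also differed between lines. The summed fibroblast list, carried by *Vim*, was at 64.4 to 67.1 FPKM in WT, 42.7 to 44.7 in D2A7, 60.6 to 60.8 in D1E6, 38.5 to 39.2 in E2E8 and 58.8 to 59.3 in E2G7. Its *Vim* was called lower in D2A7 and E2E8, and *Thy1* was called higher in D2A7. The 8 neural markers, 4 of them under 0.1 FPKM in every library, summed to 59.5 to 66.1 FPKM in WT, 84.3 to 87.0 in D2A7, 94.7 to 95.3 in D1E6, 51.5 to 53.7 in E2E8 and 97.3 to 97.5 in E2G7. Single neural markers went both ways, with *Map2* called lower in D2A7 and D1E6. *Nes* was called higher in D2A7, D1E6 and E2G7, *Sox1* in D2A7, and *Tubb3* in D1E6 and E2G7. The 6 primitive endoderm markers summed to 1.05 to 1.14 FPKM in WT, to 1.44 to 1.55 in D2A7 and to 0.684 to 0.868 in the other clones, and the 6 trophoblast markers to 45.5 to 55.1 FPKM in all. Their part in the Hox differences was not tested. In such bulk samples, fewer cells with a Hox RNA and less of that RNA per cell cannot be told apart.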

How the data were processed

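RNA was sequenced as stranded total RNA from 10 libraries, 2 from each of 5 mESC lines. The authors mapped the reads to NCBIM37 and counted GENCODE genes with HTSeq, and the deposited table gives FPKM for 34591 genes. The submitters' processing notes name R 3.3.1, edgeR 3.16.5 and limma. The annotation release named in the methods is later than the GENCODE vM1 used here for exon lengths and positions, and the counting mode for strand and overlaps is not given in the sources used here.

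Multiplying FPKM by vM1 exon length gave whole fragments for 98.1% to 98.3% of values under 100 fragments, within 0.02, after 97.2% of identifiers had been matched. 754 genes had no match, and *Hoxa3* is listed under a merged identifier, so its length is uncertain. Libraries held 30940210 to 86019244 fragments on matched genes. These totals set the precision of low values, and a count of 0 was given the limit of 3 fragments.

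Each library was divided by its median ratio over 11270 genes with at least 1 FPKM everywhere. Genes at or above 0.1 FPKM in 2 or more of the libraries compared were tested two-sided on log2(FPKM + 0.1) with limma 3.58.1 (R 4.3.3) and a variance trend, with Benjamini-Hochberg adjustment over all genes tested. Knockout comparisons used the libraries compared, and clone comparisons used all 10 with 5 line means. A call needed a fold change of 1.5 and an unadjusted p under 0.01. Replicates are the 2 biological samples of a line, and they differed beyond sampling noise (chi-square per gene 5.12 to 6.40), so each counted as 1 sample. Scripts were tested on simulated data.

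Hox genes were named if they reached 1 FPKM, were called, or were among the 3 with the highest mean of their cluster. Members, lists and tests were chosen with earlier results of these data known. Alternatives were another pseudocount, filter, scaling, threshold or sample set, voom on the recovered fragments, the replicate number as a block, the correlation within clones and each library left out. Clones are given by their codes, since the labels number them in 2 ways. 1 Hox gene, 3 listed genes and the sequences of other promoters are not reported here. Protein sequences were not used here.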

Additional observations from a re-analysis of the deposited data

Results flagged for a closer look

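Among the 4 Elmsan1 KO libraries, E2E8 replicate 2 stood apart for *Hoxc12*, at 7.70 FPKM where the others were at 6.12 to 6.19 FPKM. This was the only one of 28 groups of 4 libraries tested in which the highest or lowest library lay that far from the rest, and chance alone flags about 1 group in 20.

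The effect against WT differed between the clones of a knockout, or between the knockouts, for 5 genes on the log2 scale. Between the Dnttip1 KO clones, D2A7 minus D1E6, the difference was 1.96 for *Hoxb13*, 1.32 for *Hoxc4*, 0.85 for *Hoxb9*, 0.98 for *Hoxd8* and 0.86 for *Hoxd9*. *Hoxd8* and *Hoxd9* passed the filter there only through D2A7, and the call of *Hoxd9* held in 5 of 13 alternatives. Between the Elmsan1 KO clones, E2E8 minus E2G7, the difference was −0.97 for *Hoxb13*, which passed the filter only through E2G7. Between the knockouts, Dnttip1 KO minus Elmsan1 KO, the difference was 0.98 for *Hoxb9*.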

How the results depend on the processing

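The low level of most Hox genes limits these results: with WT at 30940210 and 37721996 fragments, the calls of *Hoxb13*, *Hoxd8* and *Hoxd9* rest on 2 to 15 fragments per WT library, and 25 genes did not pass the filter. Of 1502 recomputed values of single genes, 1411 kept their side of the threshold, 51 lost a call and 40 gained one. In 42 the sign changed, in each case without a call on either side. The cause of these changes was not tested. The mean of each cluster sum over the 10 libraries moved by less than the pooled SD between replicates under both other scalings.

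The number of Hox genes called moved most for low genes. A pseudocount of 1 left 2 of 6 calls in D2A7, 0 of 3 in E2E8, 2 of 5 for D2A7 against D1E6, 0 of 1 for E2E8 against E2G7 and 0 of 1 between the knockouts. A filter at a mean of 1 FPKM, which removes most members, left 1, 0, 0, 0 and 0 of these. Quantile normalization gave 1 call in the Elmsan1 KO, 2 in D1E6, 1 in E2G7 and 3 for D2A7 against D1E6. An adjusted p under 0.05 gave 2 in D1E6, 1 in E2G7 and 0 between the knockouts. FPKM as deposited gave 1 in the Dnttip1 KO and 1 in D1E6, no variance trend gave 1 in the Dnttip1 KO, and no filter or centring on the chromosome median each gave 1 in D1E6. No filter gave 5 in E2E8. For E2E8 against E2G7, no filter, no variance trend, an adjusted p under 0.05, voom and a fit of only the 4 libraries each gave 2. All 10 libraries in 1 fit gave 5 in the Dnttip1 KO, 2 in the Elmsan1 KO and 2 between the knockouts, where the correlation within clones gave 0. A fit of only the 4 libraries compared left 0 in E2E8.
Leaving out 1 library at a time gave 0 to 1 calls in the Dnttip1 KO, the Elmsan1 KO, D1E6 and E2G7, 0 to 2 between the knockouts, 4 to 7 in D2A7, 2 to 3 in E2E8, 2 to 4 for D2A7 against D1E6 and 0 to 2 for E2E8 against E2G7.

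The replicate number was not used as a pairing in the main fits. Differences between the 2 libraries of a line correlated between lines at −0.194 to 0.337. The highest value was for D2A7 with E2E8, and WT gave −0.189 with D2A7 and −0.194 with E2E8. With the replicate number as a block, D2A7 had 4 calls in place of 6 and D2A7 against D1E6 had 4 in place of 5, and the other 7 counts of Hox calls were as without it.

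Over all genes, calls fell from 1135, 1106, 268, 2919, 1948, 2868, 1772, 2340 and 2214 (Dnttip1 KO, Elmsan1 KO, between knockouts, D2A7, D1E6, E2E8, E2G7, D2A7 against D1E6, E2E8 against E2G7) to 540, 525, 79, 1324, 789, 1287, 709, 1025 and 828 with a pseudocount of 1. They fell to 664, 603, 112, 1515, 1093, 1600, 953, 1291 and 1227 at a mean of 1 FPKM. In the first 3 comparisons the correlation within clones gave 538, 486 and 54 and all 10 libraries in 1 fit gave 2162, 1959 and 1268. Between the knockouts the block gave 171, an adjusted p under 0.05 gave 4, and leaving out a library gave 105 to 507. Without WT replicate 1 or 2 the Dnttip1 KO had 599 and 688 and the Elmsan1 KO 622 and 682. Quantile normalization moved the share of calls that were higher from 66.5% to 54.2% in D2A7, from 35.7% to 46.9% in E2G7, from 71.5% to 53.6% for D2A7 against D1E6, from 76.5% to 56.0% for E2E8 against E2G7 and from 72.8% to 51.1% between the knockouts.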
